A study of Mus musculus with 6 samples.

Results

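The ErbB receptor family of the mouse comprises 4 receptor tyrosine kinase genes, *Egfr*, *Erbb2*, *Erbb3* and *Erbb4*. They were selected by gene name from the 53657 gene names of the count tables, and all 4 passed the expression filter that left 19656 genes for testing. RNA was measured in undifferentiated spermatogonia (Aundiff, the population that contains the stem cells of spermatogenesis) from 6 adult mice, 3 wild type (WT) and 3 with a heterozygous *Hras* G12V mutation (MUT), isolated 3 months after tamoxifen. All mice carried *Gfra1-creERT2*, a tamoxifen-activated Cre recombinase driven by the *Gfra1* promoter, and a Cre-dependent tdTomato reporter, and all received repeated courses of tamoxifen. MUT mice carried in addition the *FR-Hras* G12V allele, in which Cre removes a wild-type copy of *Hras* so that the mutated copy is expressed from the endogenous locus, whereas WT mice were littermates without it. The cells were sorted as positive for tdTomato and bright for the surface protein MCAM, and each mouse gave 1 library. Recombination is mosaic, so a library may hold cells without the mutation, and the mice were of mixed genetic background. From variant calls in the RNA of these samples, the paper proposes that most of the sorted MUT cells carried the mutation.

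ErbB receptors sit at the top of the pathway in which the mutated protein acts. Ligand binding brings receptors together in pairs, the kinase of one partner phosphorylates the tail of the other, and adaptors such as GRB2 and SHC1 bound there recruit the SOS exchange factors that load RAS with GTP. EGFR binds EGF, TGF-alpha, amphiregulin and related ligands, ERBB3 and ERBB4 bind neuregulins, ERBB2 has no known ligand and serves as the partner of the others, and ERBB3 has little kinase activity of its own and signals through its partners. EGF is a common component of the media in which spermatogonial stem cells are grown. The comparison of MUT with WT therefore addresses whether cells with constantly active HRAS express their upstream receptors at another level.

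The libraries held between 22729292 and 23550433 fragments counted on genes. *Hras* itself had between 1300 and 1600 counts per library, but the count of the whole gene does not separate the alleles (log2 fold change 0.14, standard error 0.083, adjusted p = 0.998 from edgeR). Markers of the labelled cell type were abundant, with summed levels of the 8 Aundiff markers between 1728 and 2275 CPM (counts relative to library size, which was scaled by the TMM method) in WT and between 1855 and 2237 CPM in MUT. These markers include *Mcam*, at 559 to 707 CPM, which encodes the protein used for the sort. Markers of other cells were present too. The 5 macrophage markers summed to between 398 and 583 CPM in WT and between 327 and 442 CPM in MUT, and the 6 Leydig cell markers reached 67.3 CPM in MUT replicate 3 against at most 21.1 CPM in the other libraries. No marker was at 0 in all libraries, and in bulk RNA fewer cells of a type and less RNA per cell cannot be told apart.

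To show where transcription of the highest and the lowest members begins, the 100 bases upstream of the first annotated start are printed from the RefSeq promoter table (GRCm38.p6), which matched 3 of the 4 members. They are written 5′ to 3′ on the coding strand, and capitals mark CpG dinucleotides. The windows are chr11:98412370-98412469 on the plus strand for *Erbb2*, chr11:16752103-16752202 on the plus strand for *Egfr* and chr1:69108060-69108159 on the minus strand for *Erbb4*.
Erbb2: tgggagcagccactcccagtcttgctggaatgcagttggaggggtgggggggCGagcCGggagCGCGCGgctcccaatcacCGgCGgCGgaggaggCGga
Egfr: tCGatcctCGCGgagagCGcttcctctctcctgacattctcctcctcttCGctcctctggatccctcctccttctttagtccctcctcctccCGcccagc
Erbb4: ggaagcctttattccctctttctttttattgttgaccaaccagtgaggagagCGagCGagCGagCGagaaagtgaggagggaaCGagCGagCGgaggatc

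Over the 250 bases before the RefSeq start, *Erbb2* had 16 CpG dinucleotides, *Erbb4* 12 and *Egfr* 11, against a median of 6 over 32841 promoter windows of that length. Fewer CpG dinucleotides were found in 74.6% of those windows for *Erbb2*, 66.5% for *Erbb4* and 64.4% for *Egfr*, so none of the 3 counts was unusual. GC content was 66.0% for *Erbb2*, 60.8% for *Egfr* and 54.0% for *Erbb4*, against a median of 52.4%. The GC box GGGCGG, searched on both strands, occurred once in the *Egfr* window and not in the others, while 32.7% of all windows hold it. The TATA box TATAAA was in none of the 3 windows, against 12.4% of all windows. These are descriptions of the windows, and binding to them was not measured.

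The 4 receptors differed widely in mRNA level, and their order was the same in every mouse. Levels between genes are given per length, as FPKM, which is the TMM-scaled CPM divided by the exon length in kilobases. *Erbb2* was highest at 13.7 ± 1.54 FPKM (SD over the 6 mice), *Erbb3* followed at 8.26 FPKM (range 6.14 to 9.84), *Egfr* was at 0.526 ± 0.0750 FPKM and *Erbb4* at 0.0725 ± 0.0262 FPKM. *Erbb2* and *Erbb3* together made up between 96.3% and 97.8% of the family's summed FPKM in each library. The mRNA pool of the family thus consisted mainly of the receptor without a known ligand and the receptor with little kinase activity of its own.

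*Erbb2* exceeded *Erbb3* in 6 of 6 mice, by between 1.41 and 1.95 times in FPKM. *Erbb3* exceeded *Egfr* in 6 of 6 mice, with a mean log2 difference between *Egfr* and *Erbb3* of -3.96 (SD 0.38). *Egfr* exceeded *Erbb4* in 6 of 6 mice, by between 3.85 and 13.4 times. Each of the 6 pairs of members differed in log2 FPKM (exact two-sided sign-flip permutation test over the 6 mice, p = 0.03125, which 6 mice cannot go below, and 0.03125 after Benjamini-Hochberg adjustment over the 6 pairs). The order did not depend on the length used for each gene, since with the longest coding transcript in place of the merged exons, a choice added after seeing the data, *Erbb2* exceeded *Erbb3* by between 1.46 and 2.03 times.

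**Figure D1:**
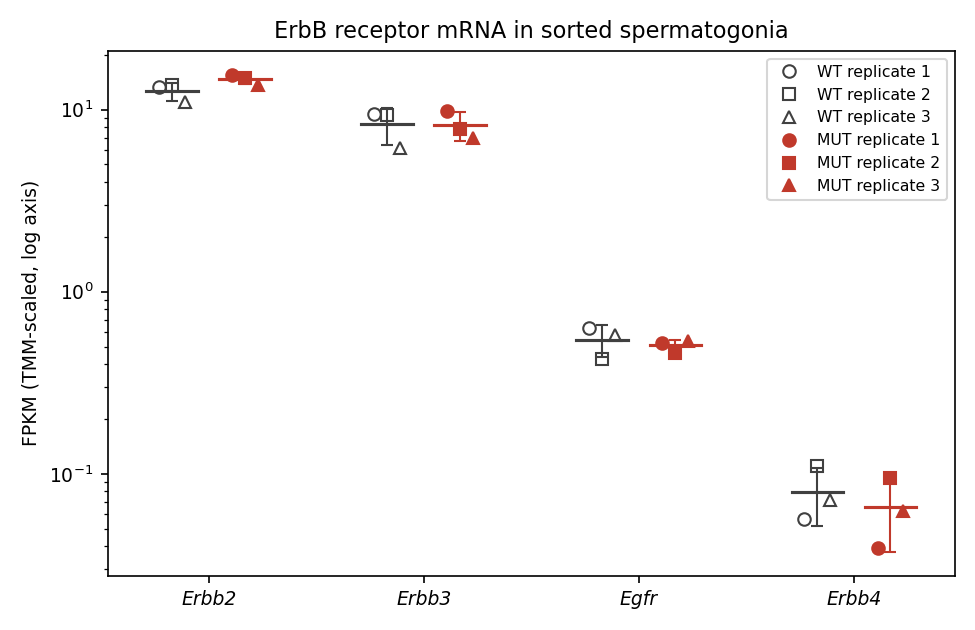
FPKM (log axis) of the 4 ErbB receptor genes in each of the 3 WT (open symbols) and 3 MUT (filled symbols) mice, with symbols by replicate number and bars for the mean and SD of each group. *Erbb2* and *Erbb3* sit between 6.14 and 15.5 FPKM, *Egfr* between 0.426 and 0.633 FPKM and *Erbb4* between 0.0389 and 0.111 FPKM, and within each gene the groups lie close together.

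Among 58 receptor tyrosine kinase genes ordered by mean FPKM, *Erbb2* stood 9th, *Erbb3* 15th, *Egfr* 37th and *Erbb4* 51st. The 5 highest were *Ptk7* at 65.2 ± 7.87 FPKM, *Ret* at 52.0 ± 9.93 FPKM, *Csf1r* at 40.3 ± 6.72 FPKM, *Ryk* at 31.6 ± 1.36 FPKM and *Igf1r* at 22.6 ± 3.28 FPKM (SD, n = 6 each). *Ret* encodes the signalling receptor for GDNF, the niche factor on which Aundiff depend, and it exceeded *Erbb2* by between 3.01 and 4.93 times in every mouse (exact sign-flip permutation test, p = 0.03125). *Csf1r* is also a marker of macrophages. Against all 19656 tested genes, *Erbb2* was above 75.9% and *Erbb3* above 65.3% by mean FPKM, while *Egfr* was above 15.7% and *Erbb4* above 0.473%.

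After adjustment, no member passed the test against its neighbours in this order. The smallest p that 6 mice allow is 0.03125, and too few of the 8 neighbour comparisons reached it for any to pass after adjustment. *Tyro3*, directly above *Erbb2* at 13.8 ± 0.860 FPKM, was exceeded by *Erbb2* in 3 of 6 mice (exact sign-flip permutation test, p = 0.688). *Erbb2* exceeded *Epha8*, directly below it at 12.1 ± 1.83 FPKM, in 6 of 6 mice, as *Erbb3* did *Ephb6* at 6.55 ± 0.803 FPKM (p = 0.03125 for each by the same exact test, 0.125 after adjustment over the 8 neighbour comparisons). *Lmtk2*, at 9.72 ± 1.40 FPKM, was above *Erbb3* in all mice but 1. *Egfr* did not differ beyond the spread from *Fgfr4* at 0.572 ± 0.125 FPKM or *Ddr2* at 0.482 ± 0.128 FPKM, nor *Erbb4* from *Epha6* at 0.0840 ± 0.0297 FPKM or *Alk* at 0.0710 ± 0.0336 FPKM, with adjusted permutation p between 0.500 and 0.844.

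**Figure D2:**
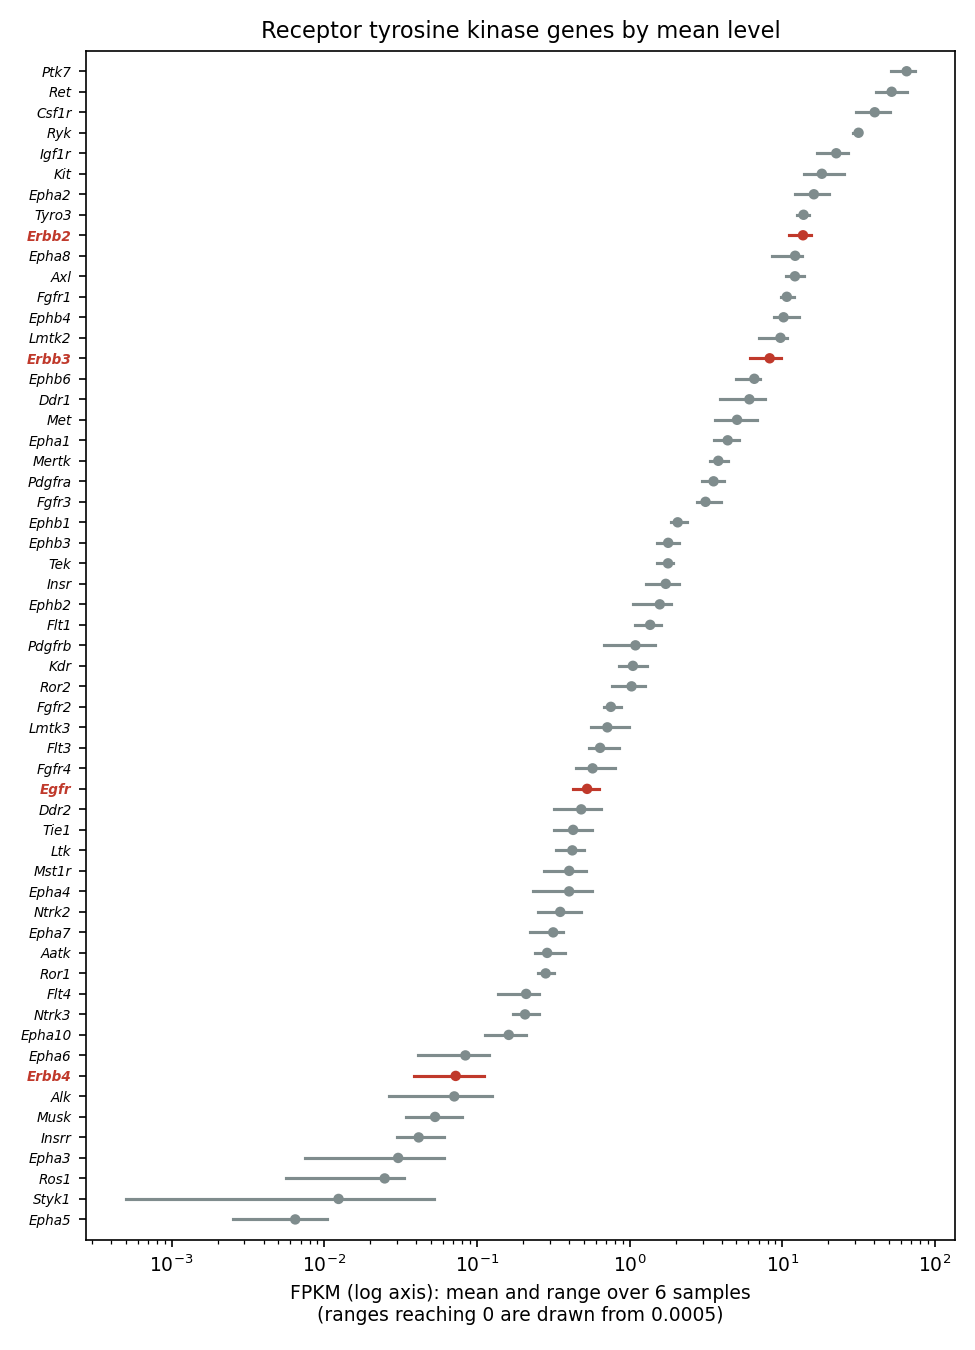
Mean FPKM over the 6 samples (points, log axis) and range (lines) of receptor tyrosine kinase genes in order of level, with the ErbB receptors in red. *Erbb2* (13.7 FPKM) and *Erbb3* (8.26 FPKM) lie in the upper part of the order, *Egfr* (0.526 FPKM) below its middle and *Erbb4* (0.0725 FPKM) near its lower end.

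The 4 FGF receptor genes, whose ligand FGF2 supports Aundiff in culture, offered a family of the same size for comparison. The ErbB receptors summed to 22.5 ± 2.72 FPKM and the FGF receptors to 15.2 ± 0.936 FPKM (SD, n = 6), so per length the ErbB sum was between 1.30 and 1.66 times higher in every mouse (exact two-sided sign-flip permutation test, p = 0.03125). This order rests on the division by exon length, which was 9875 bases for *Fgfr1* and 5210 for *Erbb2*. Without that division, mean levels were 106 CPM for *Fgfr1*, 22.5 for *Fgfr3*, 71.2 for *Erbb2* and 49.7 for *Erbb3*. The ErbB sum in CPM was then lower than the FGF receptor sum on average and in most mice, so the order of the families reversed. Transcript lengths other than the merged exons were not tried for the FGF receptors. The FGF receptor mRNA was mostly *Fgfr1*, at 10.7 ± 0.766 FPKM. By genotype, the summed ErbB level was 21.6 ± 3.26 FPKM in WT and 23.5 ± 2.28 FPKM in MUT (SD, n = 3 each) and overlapped (exact two-sided permutation test, p = 0.6).

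In MUT compared with WT, none of the 4 ErbB receptors passed the test. The quasi-likelihood test of edgeR, at a false discovery rate of 0.1, found 0 of 4 members, against 2 of 19656 tested genes (0.0102%), and with the replicate number as a block it called 0 of 4 against 13 genes (0.0661%). DESeq2 did not call any member either. An unadjusted p under 0.05 was reached by 1 of 4 members, *Erbb2*, and by 547 of all tested genes (2.78%), a background that ran from 292 to 1736 genes with 1 mouse left out and was 1297 with the replicate block. The median log2 fold change was -0.061 over the 4 members and 0.0066 over all tested genes.

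*Erbb2*, the partner receptor, is encoded on chromosome 11, plus strand, between 98412470 and 98437716, and 9 of its 5210 exonic bases are shared with *Mien1* on the opposite strand. The WT replicates, in order, held 1584, 1657 and 1358 counts and the MUT replicates 1844, 1788 and 1669. In TMM-scaled CPM this was 69.2, 70.8 and 57.4 in WT and 80.6, 77.5 and 71.3 in MUT. Every MUT sample lay above every WT sample, although the lowest MUT and the highest WT sample were nearly equal and WT replicate 3 was well below the rest. Means were 65.8 ± 7.33 CPM in WT and 76.5 ± 4.72 CPM in MUT (SD, n = 3 each), with p = 0.1 in a two-sided exact permutation test, which 3 against 3 cannot go below.

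The log2 fold change of *Erbb2* was 0.22 (standard error 0.094, 95% interval 0.0023 to 0.43), a ratio of 1.16, with an unadjusted p of 0.0481 and an adjusted p of 0.998 from edgeR. In the edgeR fit with the replicate block the 95% interval was 0.049 to 0.39 (unadjusted p = 0.0164, adjusted p = 0.534). MUT samples all above WT samples were found for 922 of the tested genes (4.69%), MUT samples all below for 590 (3.00%), and groups apart in either direction for 1512 (7.69%), which is the background for this 1 member of 4. In same-numbered mice the differences in log2 CPM were 0.22, 0.13 and 0.31. Without WT replicate 3 the log2 fold change was 0.13 (unadjusted p = 0.109 from edgeR). With 1 mouse left out, the unadjusted p from edgeR ran from 0.0377 (without MUT replicate 3) to 0.165 (without MUT replicate 1). Over all 6 mice and without the block, the unadjusted p was 0.0768 from DESeq2 and 0.0489 from limma voom. The 5 markers of differentiating spermatogonia summed to between 607 and 672 CPM in WT and to between 697 and 846 CPM in MUT. That list lay apart in the same direction as *Erbb2*, but over the 6 mice its correlation with *Erbb2* did not pass the test (r = 0.594, exact permutation p = 0.224, rho = 0.886, exact permutation p = 0.0333, adjusted p = 0.635, and r = 0.944 without the 2 libraries farthest from the median). The meiotic and spermatid markers and the macrophage markers moved against *Erbb2* over the 6 mice (Pearson r = -0.927 and -0.948, adjusted permutation p = 0.130 for each).

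*Erbb3*, the neuregulin receptor with little kinase activity, is encoded on chromosome 10, minus strand, between 128567523 and 128589652 (GRCm38.p6 throughout). By replicate number, the WT libraries held 1299, 1316 and 874 counts and the MUT libraries 1354, 1081 and 989, or 56.8, 56.2 and 36.9 CPM and 59.2, 46.9 and 42.3 CPM. The groups overlapped over nearly their whole range, and replicate 3 was lowest in both. Means per length were 8.31 ± 1.88 FPKM in WT and 8.22 ± 1.45 FPKM in MUT (SD, n = 3 each, p = 1.0 in a two-sided exact permutation test). MUT minus WT came to -0.015 on the log2 scale, with a standard error of 0.180 and an edgeR adjusted p of 0.998, and the 95% interval spanned ratios of MUT to WT from 0.744 to 1.32.

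*Erbb3* was the most variable of the better expressed members. Its spread within groups, as a coefficient of variation, was 20.3%, where counting error alone accounts for 2.95%. Of the 4964 tested genes within a factor of 2 of its level, 95.4% varied less, and their median was 7.12%. For *Erbb2* the spread was 8.66%, and 70.4% of the 4795 genes near its level varied less. In the blocked fit the 95% interval of the *Erbb3* log2 fold change narrowed to between -0.22 and 0.21.

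*Egfr*, the receptor of EGF and TGF-alpha, is encoded on chromosome 11, plus strand, between 16752203 and 16918158. The 3 WT libraries held 164, 113 and 155 counts and the 3 MUT libraries 135, 121 and 142, by replicate number. The levels were 7.17, 4.83 and 6.55 CPM in WT and 5.90, 5.25 and 6.07 CPM in MUT, so all MUT values lay inside the WT range. Means were 6.18 ± 1.21 CPM in WT and 5.74 ± 0.434 CPM in MUT (SD, n = 3 each, p = 0.7 in a two-sided exact permutation test). MUT minus WT came to -0.11 on the log2 scale (edgeR standard error 0.183, adjusted p 0.998), with a 95% interval of the ratio from 0.695 to 1.24. Its spread within groups was 15.3% against 8.50% from counting alone, close to the median of 15.1% of the 3576 genes near its level.

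*Erbb4*, the other neuregulin receptor, is encoded on chromosome 1, minus strand, between 68032186 and 69108059. It gave only 16, 32 and 21 counts in the WT libraries and 11, 27 and 18 in the MUT libraries, by replicate number, spread over 12355 exonic bases. This was 0.699, 1.37 and 0.888 CPM in WT and 0.481, 1.17 and 0.769 CPM in MUT, with the groups interleaved. All libraries were above the floor of 3 counts, which corresponded to between 0.127 and 0.131 CPM. The lowest, MUT replicate 1, had an exact Poisson 95% interval of 0.240 to 0.860 CPM, which covers counting error only. For *Erbb4* MUT minus WT was -0.29 on the log2 scale (edgeR standard error 0.390, 95% interval -1.18 to 0.60, adjusted p 0.998), so at this depth a ratio of MUT to WT anywhere between 0.442 and 1.52 was within the error. Replicate 2 was highest and replicate 1 lowest in both groups.

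The composition of the family overlapped between genotypes. *Erbb2* took 56.8%, 57.9% and 61.9% of the summed FPKM in the WT libraries by replicate number and 59.8%, 64.1% and 64.2% in the MUT libraries. *Erbb3* took 40.3%, 39.8% and 34.5% in WT and 38.0%, 33.5% and 33.0% in MUT. The groups overlapped for both receptors (exact two-sided permutation test, p = 0.2 for each). In same-numbered mice, a comparison added after the values were seen, the share of *Erbb2* was higher in MUT in 3 of 3 pairs, by 3.05, 6.16 and 2.37 percentage points, and that of *Erbb3* was lower in 3 of 3 pairs (exact sign-flip permutation test over the pairs, p = 0.25 for each, which 3 pairs cannot go below). The log2 ratio of *Erbb2* to *Erbb3* was 0.63 ± 0.19 in WT and 0.85 ± 0.17 in MUT (SD, n = 3 each, exact permutation p = 0.2, and 0.80 after adjustment over the 6 ratios between members), and the ratio was higher in MUT in 3 of 3 pairs (exact sign-flip permutation p = 0.25).

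By mean level, all ligand genes lay below the median tested gene, at 3.90 FPKM. Most were far below it. Of 11 EGF-family ligand genes, 6 passed the expression filter and 0 were called in MUT against WT by edgeR, with 0 of 6 at an unadjusted p under 0.05 and none called by DESeq2. *Hbegf*, heparin-binding EGF, was highest at 3.18 ± 0.291 FPKM (SD, n = 6), and *Nrg4* and *Nrg2*, which encode neuregulins, followed at 1.07 ± 0.130 and 1.01 ± 0.241 FPKM. *Egf* was at 0.515 ± 0.0289 FPKM, *Tgfa* at 0.254 ± 0.0477 FPKM and *Nrg1* at 0.174 ± 0.0166 FPKM. The remaining ligand genes had at most 12 counts in any library, with 4 to 12 for *Nrg3*, 3 to 7 for *Btc* and 2 to 5 for *Areg*, and *Epgn* and *Ereg* had 0 or 1. Log2 fold changes of the 6 tested ligands lay between -0.25 for *Tgfa* (adjusted p = 0.998 from edgeR) and 0.12 for *Nrg1* (adjusted p = 0.998), and 5 of the 6 were negative.

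The proteases that release membrane-bound ligands were well expressed. *Adam10* was at 17.4 ± 0.987 FPKM and *Adam17* at 14.3 ± 0.710 FPKM (SD, n = 6), and the iRhom gene *Rhbdf2*, which controls the maturation of ADAM17, was at 18.7 ± 1.94 FPKM. None of the 4 genes of this list was called by edgeR or DESeq2, none reached an unadjusted p under 0.05, and their log2 fold changes lay between -0.032 and 0.073.

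All 17 genes for adaptors and effectors of the active receptors were tested. The highest were *Pik3r2*, a regulatory subunit of phosphoinositide 3-kinase, at 51.1 ± 3.88 FPKM, *Crkl* at 33.6 ± 3.21 FPKM and *Grb2*, the link to SOS, at 26.8 ± 1.20 FPKM (SD, n = 6). None of the 17 was called by edgeR or DESeq2. Over all tested genes 2.78% reached an unadjusted p under 0.05 from edgeR, and of the 17 it was 1. This was *Src*, which encodes the cytoplasmic kinase that acts with ErbB receptors, at 82.6, 79.3 and 72.0 CPM in the WT libraries by replicate number and 102, 95.3 and 88.6 CPM in the MUT libraries. All MUT samples lay above all WT samples, as they did for 4.69% of all tested genes. The log2 fold change of *Src* was 0.29 (standard error 0.080, unadjusted p = 0.00643, adjusted p = 0.998 from edgeR, and 0.282 with the replicate block). The median log2 fold change of the list was 0.041.

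Of 12 genes that restrain the receptors or govern their turnover, none was called by edgeR or DESeq2 and none reached an unadjusted p under 0.05, with log2 fold changes between -0.11 and 0.11. *Usp8*, a deubiquitinase of endosomal receptors, was at 40.4 ± 2.80 FPKM, *Errfi1*, the feedback inhibitor of the ErbB kinases, at 24.3 ± 1.06 FPKM and *Rnf41*, a ubiquitin ligase of ERBB3, at 18.0 ± 0.838 FPKM (SD, n = 6). The log2 fold change of *Errfi1*, a gene induced by signalling through RAS, was 0.022 (standard error 0.069, 95% interval -0.14 to 0.18, adjusted p = 0.998 from edgeR).

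**Figure D3:**
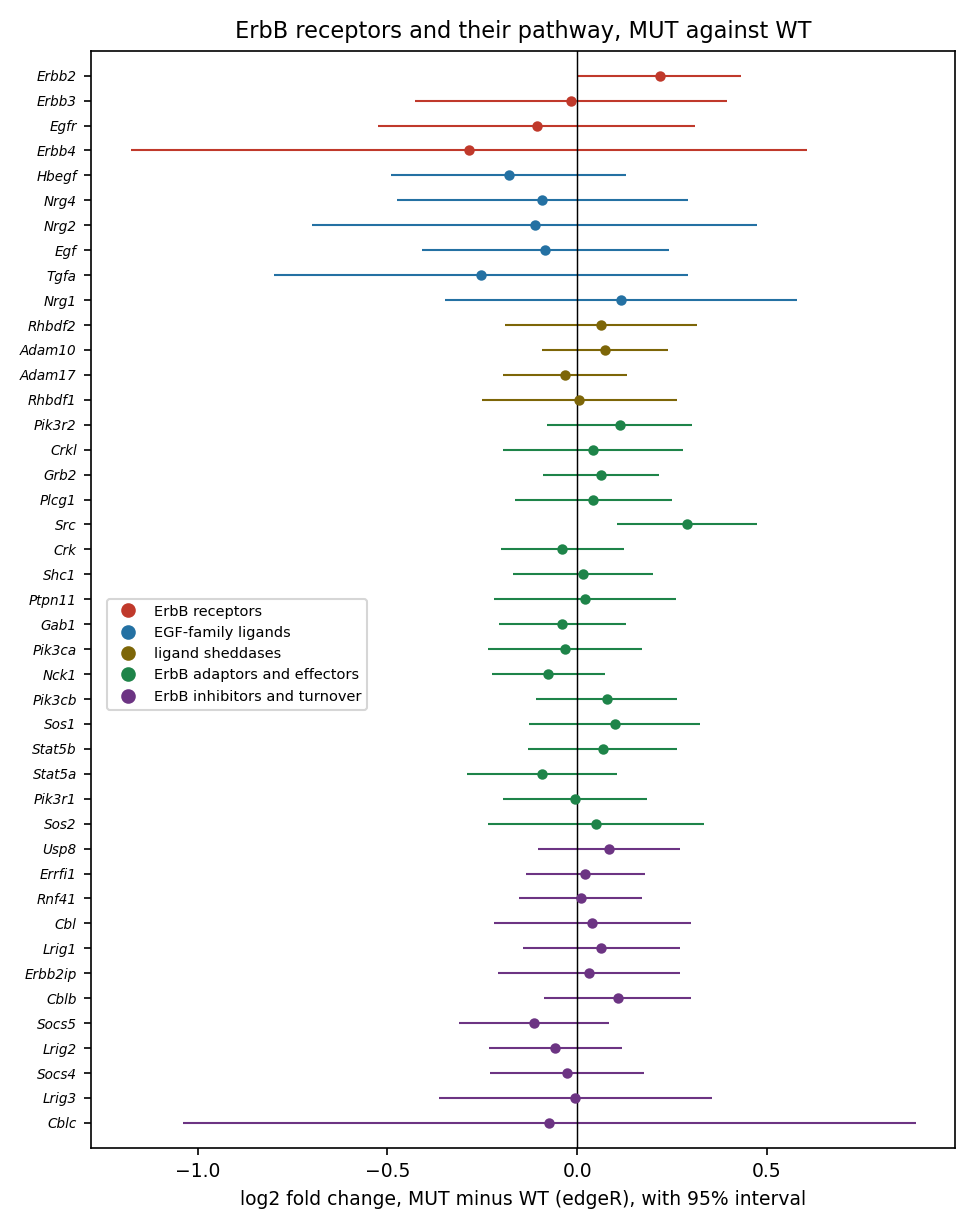
Log2 fold change of MUT against WT from edgeR (points) with 95% intervals (lines) for the 4 ErbB receptors and the 39 tested genes of 4 pathway lists, coloured by list. Intervals of *Erbb2* (0.0023 to 0.43) and *Src* (0.11 to 0.47) lie above 0 before adjustment, and all other intervals include 0. Those of *Cblc* and *Erbb4* (-1.18 to 0.60) are the widest.

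For each member, the 3 tested genes of at least 1 CPM with the most similar log2 CPM were sought among at least 16667 genes, and since they are the closest of so many over 6 samples, the correlations are descriptions without a test. *Erbb2* was followed most closely by *Piwil2*, a germ cell PIWI gene (Pearson r = 0.998, Spearman rho = 1.0), *Dgcr14* (r = 0.997, rho = 0.943) and *RP23-454K24.1* (r = 0.993, rho = 1.0), and 561 genes had an r above 0.9 with it. *Erbb3* was followed by *Wwp2*, *Tnip1* and *Sympk* (r = 0.991 and rho = 1.0 for each), with 364 genes above 0.9. For *Egfr* the closest genes were *Tmem204* (r = 0.991, rho = 1.0), *Renbp* (r = 0.988, rho = 1.0) and *Ppcs* (r = 0.981, rho = 0.943). For *Erbb4*, whose low counts make its pattern uncertain, they were *Abcd3* (r = 0.985, rho = 0.943), *Trim54* (r = 0.977, rho = 0.943) and *Surf2* (r = 0.971, rho = 1.0), and only 30 genes exceeded 0.9.

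Because replicates of a group differed in marker content, the members were also set beside the summed CPM of 10 marker lists, a comparison added after the values were seen. *Erbb3* and the 8 Aundiff markers, which include the sorting marker *Mcam*, varied together. The markers summed to 2275, 2175 and 1728 CPM in the WT libraries by replicate number and to 2237, 1855 and 1874 CPM in the MUT libraries, and the libraries with high sums were those with high *Erbb3* (r = 0.963, rho = 0.886, exact permutation p = 0.00972 and 0.0333). Without the 2 libraries farthest from the median of the marker sum, r was 0.951. *Erbb2* ran against the summed level of 7 meiotic and spermatid markers, which came to 1176, 941 and 1475 CPM in WT and to 742, 786 and 1163 CPM in MUT (r = -0.927, rho = -0.943, exact permutation p = 0.00417 and 0.0167, and r = -0.862 without the 2 farthest libraries). Of that sum, between 62.8% and 78.6% came from the spermatid genes *Prm1*, *Prm2* and *Tnp1*, named after their values were seen, whose log2 fold changes were -0.62, -0.56 and -0.59 (adjusted p = 0.998 for each from edgeR). With the replicate block *Tnp1* was called by edgeR and DESeq2 (adjusted p = 0.0794 and 0.000259). *Prm1* was called by DESeq2 only (adjusted p = 0.00126, against 0.189 from edgeR), and *Prm2* by neither (0.226 from edgeR and 0.791 from DESeq2). That block called 13 genes in edgeR and 55 in DESeq2 over the whole table. The other markers of that list went both ways, with log2 fold changes of 0.019 for *Sycp1* and 0.20 for *Piwil1*. Those of *Spo11* and *Acrv1* were -0.18 and -0.22 (adjusted p = 0.998 for each of these markers from edgeR). *Erbb2* also ran against the 5 macrophage markers, which summed to 450, 398 and 583 CPM in WT and to 327, 403 and 442 CPM in MUT (r = -0.948, rho = -0.829, exact permutation p = 0.00972 and 0.0583), with r = -0.585 without the 2 farthest libraries. After adjustment over the 40 relations between 4 members and 10 lists, these 3 relations each had a p of 0.130, above the threshold. The 4 lymphocyte markers followed, with r = -0.930 for *Erbb2* and -0.848 for *Erbb3* (exact permutation p = 0.0194 and adjusted p = 0.156 for each), and without the 2 farthest libraries r was -0.392 and -0.453. The correlations and their permutations pool WT and MUT mice, so differences between the genotypes enter them along with differences within each genotype. The part of these cells in the differences between mice was not tested.

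**Figure D4:**
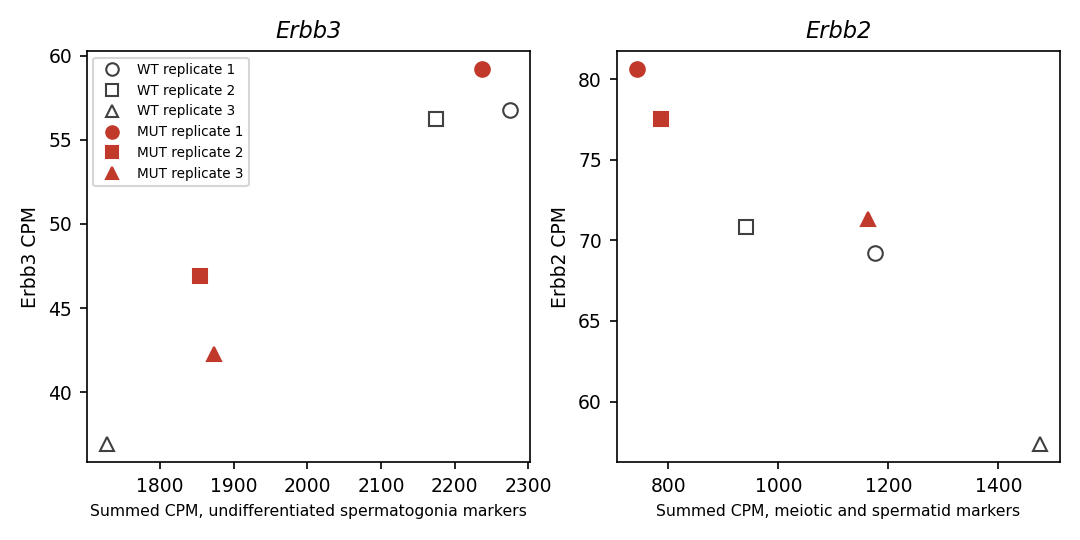
*Erbb3* CPM against the summed CPM of Aundiff markers (left) and *Erbb2* CPM against the summed CPM of meiotic and spermatid markers (right) in each of the 3 WT (open) and 3 MUT (filled) mice. WT replicate 3 has the lowest *Erbb3* (36.9 CPM) beside the lowest marker sum (1728 CPM), and the lowest *Erbb2* (57.4 CPM) beside the highest sum of meiotic and spermatid markers (1475 CPM).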

How the data were processed

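Libraries of mRNA from sorted cells were made with a stranded kit and sequenced from both ends. The files deposited by the authors hold raw counts, made per the file headers with featureCounts 1.6.2 from read pairs on GENCODE exons plus tdTomato and summed by gene name. Strand was not used, and ambiguous or multiply aligned fragments were left out. The submitters' processing notes name STAR and GRCm38.p6. The merged exon length per gene is a further deposited column. No normalization, filter or pooling had been applied.

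In R 4.3.3, counts were TMM-normalized with edgeR 4.0.16, filtered with filterByExpr (19656 genes kept) and tested with the quasi-likelihood test, genotype being the only term, with Benjamini-Hochberg adjustment over all tested genes with a threshold of 0.1. Standard errors are the absolute log2 fold change divided by the square root of F. CPM and FPKM use TMM-scaled library sizes, and log2 CPM a prior count of 2. The smallest two-sided p of an exact permutation test of 3 against 3 samples is 0.1. Alternatives were DESeq2 1.42.0, which the study used, limma 3.58.1 with voom, DESeq2 size factors, other filters, the replicate block and each sample left out. *Erbin* is listed in the files as *Erbb2ip*. The fitting scripts were tested on simulated counts.

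The replicate numbers come from the sample titles. Deviations from group means, over 10583 genes above 10 CPM, correlated at 0.304, 0.156 and 0.395 in the pairs numbered 1, 2 and 3, and the numbers were taken to pair the samples. These values are for same-numbered mice only and do not establish a pairing, which the titles do not state. The controls were littermates, but which of the numbered mice shared a litter is not given. Replicates differed by more than sampling noise (chi-square per degree of freedom between 4.26 and 24.5 within groups). The study gives 3 mice per genotype, and p-values measure the spread between these libraries. Poisson intervals and floors cover counting error only.

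The members and gene lists were chosen with earlier results of these data known. Genes named were the members, all ligands, the 3 highest genes of every other pathway list and those at an unadjusted p under 0.05, the 5 highest receptor tyrosine kinases and the members' neighbours among them, and the 3 genes most similar to each member. 1 receptor tyrosine kinase is not reported here and is not drawn.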

Additional observations from a re-analysis of the deposited data

How the results depend on the processing

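No ErbB receptor and no gene of the 4 pathway lists was called under any setting run, and the log2 fold changes of the 4 receptors kept their sign in all 7 fits on the 6 samples. *Erbb2* stayed between 0.20 and 0.22 there (lowest adjusted p = 0.534, with the replicate block in edgeR), and between 0.13 and 0.27 when 1 mouse was left out. Leaving out 1 mouse gave between -0.27 and 0.0038 for *Egfr*, whose sign turned without WT replicate 1, between -0.66 and 0.013 for *Erbb4*, whose sign turned without WT replicate 2, and between -0.19 and 0.086 for *Erbb3*, whose sign turned without WT replicate 1, WT replicate 2, MUT replicate 2 or MUT replicate 3. The number of genes called over the whole table, 2 in edgeR, was 9 with DESeq2, 4 with limma voom, 5 without a filter, 1 at an FDR of 0.05, 13 with the replicate block in edgeR and 55 with it in DESeq2. With a minimum of 10 counts in all 6 libraries edgeR called 0, and 479 genes had an unadjusted p under 0.05. Without 1 mouse it ran from 0 (MUT replicate 2 left out, 292 genes at an unadjusted p under 0.05) to 6 (MUT replicate 3 left out, 1736 genes at an unadjusted p under 0.05). The cause was not tested. The replicate block changed no call of a member. The order of the 4 receptors held in every mouse under each length and scaling used, and without division by length the places among receptor tyrosine kinases were 11 for *Erbb2*, 14 for *Erbb3*, 35 for *Egfr* and 50 for *Erbb4*. Depth limited *Erbb4* most, at 11 to 32 counts per library.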

Other observations

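Of the other receptor tyrosine kinases, named here after their values were seen, *Kit*, the receptor of differentiating spermatogonia, was at 15.9 ± 2.42 FPKM in WT and 20.4 ± 4.34 FPKM in MUT and overlapped (SD, n = 3 each, log2 fold change 0.36, adjusted p = 0.998 from edgeR). Its unadjusted p from edgeR was 0.0497, and 0.00121 with the replicate block (adjusted p = 0.243). An unadjusted p under 0.05 was reached by 4 of the 51 tested receptor tyrosine kinases and by 2.78% of all tested genes. *Axl* and *Mertk*, receptors of the TAM family that macrophages and Sertoli cells express, were lower in every MUT than in every WT sample, at log2 fold changes of -0.20 each (adjusted p = 0.998 from edgeR), beside macrophage marker sums of 398 to 583 CPM in WT and 327 to 442 CPM in MUT and Sertoli cell marker sums of 17.3 to 22.2 CPM in WT and 19.3 to 27.3 CPM in MUT, while *Tyro3* of the same family was higher in every MUT sample at 0.13 (adjusted p = 0.998 from edgeR). With *Erbb2*, 6 of the 51 tested receptor tyrosine kinases were higher and 2 lower in every MUT sample, none of them called, where over all 19656 tested genes the shares were 4.69% and 3.00%.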
